A study of Mus musculus with 42 samples.

Results

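Arc, Fos, Fosb, Junb, Egr1, Egr2, Egr3, Egr4, Npas4 and Nr4a1 are immediate early genes, whose transcription is switched on by neuronal activity. They were taken by name from the 3 deposited tables of the series, where they are 10 of 20661 genes, and the rule uses their names alone. The study profiled mouse central nervous system RNA in 42 libraries and asked, by its title, about miR-142-3p and oligodendrocyte gene networks in tauopathy. The first table held 24 TRAP libraries, in which tagged ribosomes are immunoprecipitated with the RNA they carry. The labels call the cells mature oligodendrocytes and the regions frontal cortex (7 libraries), subcortical white matter (6), cerebellum (6) and spinal cord (5). The second table held bulk frontal cortex of mice labelled rTg4510- (3 libraries) and rTg4510+ (3 libraries), whose titles carry the mark 8mo. rTg4510 mice express mutant human tau in forebrain neurons through an activator under the Camk2a promoter. The third table held bulk prefrontal cortex labelled miR-142-null, miR-142-heterozygotes and miR-142 (called wild type here, after the WT in the titles), with 4 libraries each. The labels give no strain, and no age beyond the 8mo mark. They do not say which promoter drives the ribosome tag, whether rTg4510- mice carry the activator alone, or whether each library is a separate animal. The p-values therefore describe the spread among these libraries, which may be technical.

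Immediate early genes are transcribed within minutes of a stimulus because their activators are already present in the resting cell. Calcium entry through NMDA receptors and L-type channels activates CaM kinases and the ERK pathway, which act on CREB at cAMP response elements and on SRF with its partners at serum response elements. Arc encodes a postsynaptic protein that drives AMPA receptor removal. The other genes of the group encode transcription factors: Fos, Fosb and Junb are AP-1 subunits, Egr1 to Egr4 are zinc finger factors, Npas4 is a neuronal bHLH-PAS factor and Nr4a1 is an orphan nuclear receptor. In forebrain these genes are best known from excitatory neurons, and several of them also respond to growth factors in glia.

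Promoter sequence is a feature that these genes share and that no expression value chose. RefSeq promoter windows on GRCm38.p6 were at hand for 7 of the 10 genes (Fos, Fosb, Junb, Egr2, Egr4, Npas4 and Nr4a1). In the 250 bases before the start, the half-site of the cAMP response element, TGACG on either strand, was found in 7 of 7, against 19.8% of the 27025 genes in the same reference. The full palindrome TGACGTCA, which contains the half-site on both strands, was found in 0 of 7 and in 1.77% of all genes. A CArG box, the core of serum response elements, was found on either strand in Egr2 alone, against 1.62% of genes. The TATA motif TATAAA, read on the gene's own strand, was found in Fos alone, against 8.94%. The AP-1 site TGANTCA was found in none (7.82% of genes), and the EGR site GCGNGGGCG, on either strand, in Fosb and Nr4a1 (5.33%). A match describes letters in this window and not a bound site. Sites farther upstream were not searched, so a motif missing here can still be present in the gene's wider promoter. The windows of Fos, Egr4 and Nr4a1 are shown because each is 1 window with 2, 2 and 4 half-sites, and for Npas4 30 bases around its pair are shown. Egr2 has several overlapping windows, 3 of which also carry 2 half-sites each, and is not printed. Fos lies at chr12:85473640-85473889 on the plus strand, directly before the annotated gene. Egr4 lies at chr6:85513590-85513839 on the minus strand. Nr4a1 lies at chr15:101266596-101266845 on the plus strand, within the span of the longest annotated transcripts and outside their exons. Npas4 lies at chr19:4990129-4990158 on the minus strand, within an annotated exon. Capitals mark TGACG or its reverse complement and, in Fos, the TATA motif.
Fos: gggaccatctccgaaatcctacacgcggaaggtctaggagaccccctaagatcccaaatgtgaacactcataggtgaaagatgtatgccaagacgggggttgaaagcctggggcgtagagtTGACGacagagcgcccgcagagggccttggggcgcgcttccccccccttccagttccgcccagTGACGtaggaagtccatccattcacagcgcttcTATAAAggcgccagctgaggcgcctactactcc
Egr4: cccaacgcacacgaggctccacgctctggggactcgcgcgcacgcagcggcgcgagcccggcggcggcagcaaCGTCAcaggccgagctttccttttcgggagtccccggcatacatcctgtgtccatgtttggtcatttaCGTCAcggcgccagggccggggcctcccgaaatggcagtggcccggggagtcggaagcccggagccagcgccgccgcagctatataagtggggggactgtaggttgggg
Nr4a1: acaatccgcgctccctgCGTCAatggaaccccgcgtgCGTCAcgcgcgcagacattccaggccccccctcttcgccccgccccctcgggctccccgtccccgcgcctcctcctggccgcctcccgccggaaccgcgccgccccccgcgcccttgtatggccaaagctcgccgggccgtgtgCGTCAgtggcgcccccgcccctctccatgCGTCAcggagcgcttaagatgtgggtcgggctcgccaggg
Npas4: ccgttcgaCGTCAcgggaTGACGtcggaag

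Levels are given in RPKM, the deposited unit, which scales read counts by gene length and library depth. Depth was estimated from the spacing of the RPKM values, with the spacing of 2 libraries corrected by a divisor, and was 3.26 to 36.8 M reads in TRAP libraries and 13.9 to 31.8 M in bulk libraries (M, mega). Spinal cord replicates 4 and 7 stood apart, with 21.2 and 28.5 RPKM of Fos against 0.473 to 6.6 RPKM in the other 3 spinal cord libraries, and replicate 7 was the shallowest library at 3.26 M reads. The summed level of 8 oligodendrocyte markers had a median of 5719 RPKM in cortex, 22228 in white matter, 32549 over the cerebellum libraries and a spinal cord median of 40320. Neuronal RNA was abundant beside it: 9 pan-neuronal genes summed to median RPKM of 8984 (cortex), 5166 (white matter), 6412 (cerebellum) and 6918 (spinal cord). Markers of forebrain excitatory neurons (7 genes) summed to medians of 4484 RPKM in cortex and 1961 in white matter, but 112 in cerebellum and 84 in spinal cord. Striatal neuron markers (4 genes) summed to a median of 421 RPKM in white matter, where libraries ran from 28 to 911. Their medians were 68.5 in cortex, 66.1 in cerebellum and 70.8 in spinal cord. The part of striatal RNA in the white matter results was not tested. Over TRAP cortex libraries, the oligodendrocyte, pan-neuronal and forebrain excitatory sums were 4946 to 9535, 5519 to 12054 and 2725 to 5011 RPKM. In bulk rTg4510- frontal cortex these sums were 3688 to 5744, 8791 to 9060 and 1362 to 1790 RPKM. In bulk miR-142 wild-type prefrontal cortex they were 1095 to 1510, 9585 to 10872 and 1951 to 2212 RPKM. The tables were made separately, and enrichment for oligodendrocyte RNA was not tested. The bearing of these neuronal transcripts on the levels of the immediate early genes was not tested beyond the covariate given below. In bulk and TRAP libraries alike, fewer cells of a type and less RNA per cell cannot be told apart.

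In TRAP RNA, 9 of the 10 immediate early genes were higher in cortex than in cerebellum, where 13.1% of all genes tested were, and 9 were higher than in spinal cord, where 27.5% were. White matter also gave 9 of 10, against cerebellum (6.83% of all genes) and against spinal cord (18.7%). The gene not called in these 4 comparisons was Fos. A gene is called here when its limma p-value, adjusted by Benjamini-Hochberg over all genes tested, was under 0.05, and fold changes are differences of log2(RPKM + 0.5), which understate the change of low genes. All 10 genes passed the filter on low values in every table.

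Arc was the most abundant of the 10 per length in each region. In cortex its lowest, median and highest levels were 361, 447 and 610 RPKM. White matter libraries held 171, 218 and 258 RPKM by the same measures, and cerebellum 20.6, 57.9 and 84.9 RPKM. The 5 spinal cord libraries held 47.1, 35.2, 43.6, 31.7 and 43.3 RPKM. No cortex library overlapped with white matter, and no white matter library with the other 2 regions, while cerebellum and spinal cord overlapped. Arc was 2.1-fold higher in cortex than in white matter (log2 1.07 ± 0.25 SE, limma adjusted p = 0.0105), 8.78-fold higher than in cerebellum (log2 3.13 ± 0.25, adjusted p = 1.21e-10) and 11.1-fold higher than in spinal cord (log2 3.47 ± 0.26, adjusted p = 3.99e-11).

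**Figure D1:**
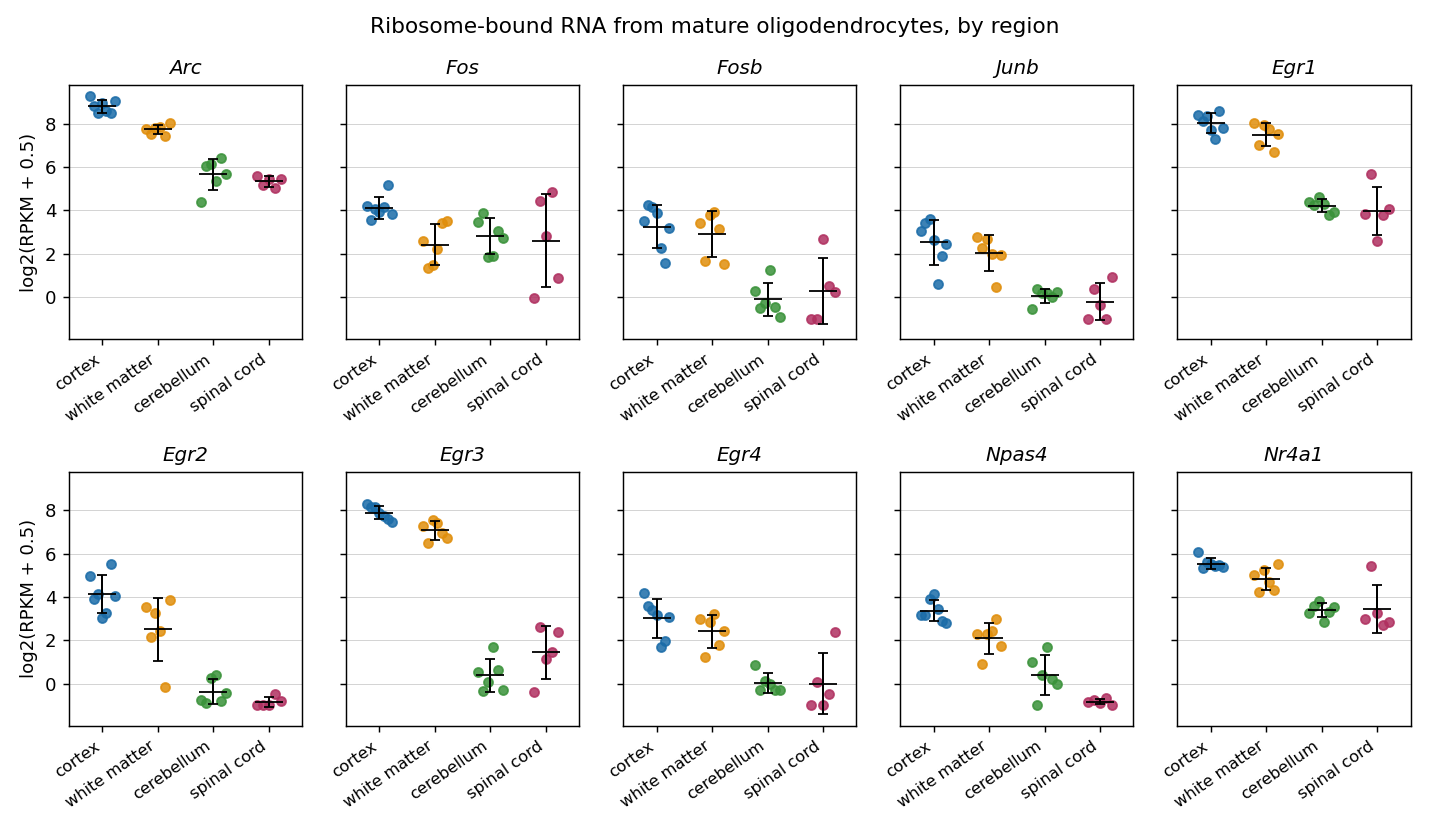
RPKM of the 10 genes on a log2(RPKM + 0.5) axis in each TRAP library, by region (7 cortex, 6 white matter, 6 cerebellum and 5 spinal cord libraries); points are libraries, horizontal bars the mean and whiskers 1 SD. The means of cortex and white matter lie above those of cerebellum and spinal cord for 9 genes, whereas the 5 Fos values of spinal cord spread from 0.473 to 28.5 RPKM.

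Among the zinc finger factors of the Egr family, Egr3 and Egr2 had the largest log2 fold changes of the 10 genes for cortex against cerebellum and against spinal cord. Egr1 ranged from 155 to 381 RPKM in cortex (median 275) and from 104 to 265 in white matter (median 199). Cerebellum held 13.1 to 24 RPKM of Egr1 (median 19), and the spinal cord libraries 13.5, 49.9, 5.45, 13.2 and 16.2 RPKM, replicate 4 being the high one. Every cortex and white matter library exceeded every cerebellum and spinal cord library for this gene. The log2 fold change of Egr1 was 3.81 ± 0.34 for cortex against cerebellum (adjusted p = 1.03e-09) and 4.05 ± 0.35 for cortex against spinal cord (adjusted p = 9.12e-10). Egr3, a close relative of Egr1, showed the widest gap of the 10. The lowest, median and highest levels of Egr3 were 177, 235 and 314 RPKM in cortex, 89.2, 138 and 190 in white matter, and 0.283, 0.764 and 2.77 in cerebellum. Spinal cord libraries held 0.256, 5.65, 1.68, 2.3 and 4.75 RPKM of Egr3. Egr3 was 182-fold higher in cortex than in cerebellum (log2 7.51 ± 0.39, adjusted p = 1.71e-14) and 87.7-fold higher than in spinal cord (log2 6.45 ± 0.41, adjusted p = 1.40e-12).

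Egr2, known for its role in myelinating Schwann cells and in hindbrain segmentation, was low outside the forebrain. It spanned 7.71 to 44.9 RPKM in cortex (median 16.1) and 0.402 to 13.9 in white matter (median 6.9). Cerebellum held 0.0481 to 0.818 RPKM (median 0.164). In spinal cord Egr2 was at 0 in replicates 3, 4 and 5, where 3 reads would be worth 0.164, 0.249 and 0.195 RPKM, and at 0.217 and 0.0685 RPKM in replicates 7 and 8. The log2 fold change was 4.50 ± 0.52 for cortex against cerebellum (adjusted p = 1.70e-07) and 4.99 ± 0.55 for cortex against spinal cord (adjusted p = 4.83e-08). Egr4, another zinc finger factor, ranged from 2.76 to 17.5 RPKM in cortex and 1.82 to 8.92 in white matter. Cerebellum libraries held 0.312 to 1.35 RPKM of Egr4 and spinal cord libraries 0 to 4.72. One spinal cord library, replicate 8 at 4.72 RPKM, fell inside the cortex range, and cerebellum did not overlap with cortex. Cortex exceeded cerebellum by a log2 fold change of 2.99 ± 0.52 in Egr4 (adjusted p = 7.45e-05).

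Among the AP-1 genes, Fosb and Junb followed the regional pattern. Fosb spanned 2.46 to 18.4 RPKM in cortex (median 10.8), 2.36 to 14.8 in white matter (median 9.29) and 0.0323 to 1.84 in cerebellum (median 0.275). In spinal cord Fosb was at 0 in replicates 3 and 4, where 3 reads would be worth 0.228 and 0.346 RPKM, and at 5.97, 0.907 and 0.667 RPKM in replicates 5, 7 and 8. Its log2 fold change was 3.36 ± 0.59 for cortex against cerebellum (adjusted p = 8.28e-05) and 2.97 ± 0.62 for cortex against spinal cord (adjusted p = 0.000332). Junb spanned 1 to 11.8 RPKM in cortex (median 5.65), 0.892 to 6.25 in white matter (median 3.9), 0.184 to 0.789 in cerebellum (median 0.635) and, over the spinal cord libraries, 0 to 1.4. Every cerebellum library lay below every cortex and white matter library for Junb, and 1 spinal cord library (replicate 8, at 1.4 RPKM) did not. Cortex exceeded cerebellum in Junb by a log2 fold change of 2.45 ± 0.48 (adjusted p = 0.000322).

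Fos, the AP-1 subunit most used as a mark of active neurons, was not called in any comparison of regions. Its lowest, median and highest levels were 11.2, 16.1 and 35.1 RPKM in cortex, 2.02, 4.82 and 11 in white matter, and 3.06, 7.02 and 14.3 in cerebellum. Spinal cord libraries held 0.473, 21.2, 6.6, 28.5 and 1.36 RPKM in replicates 3, 4, 5, 7 and 8, so that 2 of them lay above the cortex median. Those 2 values rested on 206 and 106 recovered reads. Cortex and white matter did not overlap for Fos, and cortex overlapped with both other regions. The log2 fold change of cortex was 1.70 ± 0.61 against white matter (adjusted p = 0.0951), 1.31 ± 0.61 against cerebellum (adjusted p = 0.118) and 1.53 ± 0.64 against spinal cord (adjusted p = 0.0524). The last of these depended on the setting: Fos was called against spinal cord without spinal cord replicate 4 (1.99, adjusted p = 0.0142) or without replicate 7 (2.10, adjusted p = 0.00767), with library weights (2.18, adjusted p = 0.00413), with limma-voom on recovered reads (2.06, adjusted p = 0.0203), with pseudocount 0.1 (1.74, adjusted p = 0.0462) and with the replicate block (1.59, adjusted p = 0.0364). With library weights or with only the 2 groups fitted, Fos was also called against cerebellum (adjusted p = 0.00122 and 0.00727) and against white matter (adjusted p = 0.0144 and 0.0107), the latter also with quantile normalization (adjusted p = 0.0465). White matter differed from cerebellum by -0.39 in Fos (95% interval -1.67 to 0.90) and from spinal cord by -0.17 (95% interval -1.52 to 1.18).

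Npas4, a factor induced selectively by calcium entry in neurons, ranged from 6.5 to 16.9 RPKM in cortex (median 8.66) and from 1.36 to 7.48 in white matter (median 4.41). Cerebellum held 0 to 2.79 RPKM (median 0.741), and all 5 spinal cord libraries were at or below 0.127 RPKM. Every spinal cord library lay below every cortex and white matter library, and every cerebellum library lay below every cortex library; cerebellum replicate 3, listed at 0, lay within the spinal cord range. Cortex exceeded cerebellum by a log2 fold change of 2.99 ± 0.42 in Npas4 (adjusted p = 4.26e-06) and spinal cord by 4.20 ± 0.45 (adjusted p = 2.55e-08). Nr4a1 ranged from 40.4 to 67 RPKM in cortex (median 44.1), 18.6 to 45.6 in white matter (median 28.6) and 6.79 to 13.7 in cerebellum (median 10.3). Spinal cord libraries held 7.56, 42.5, 8.96, 6.12 and 6.65 RPKM of Nr4a1, replicate 4 alone reaching the cortex range. The log2 fold change was 2.15 ± 0.35 for cortex against cerebellum (adjusted p = 2.70e-05) and 2.10 ± 0.36 for cortex against spinal cord (adjusted p = 3.79e-05).

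Against white matter as the higher group, the order of the genes was similar. Egr3 was 103-fold higher in white matter than in cerebellum (log2 6.69 ± 0.40, adjusted p = 9.50e-13), with a log2 fold change of 5.63 ± 0.42 against spinal cord (adjusted p = 1.01e-10). For Egr1 the values were 3.28 ± 0.35 and 3.52 ± 0.37, for Egr2 2.87 ± 0.54 and 3.36 ± 0.57, and for Egr4 2.39 ± 0.54 and 2.42 ± 0.56. Fosb stood at 3.01 ± 0.61 and 2.62 ± 0.64, Junb at 1.96 ± 0.50 and 2.24 ± 0.53. Npas4 differed by 1.73 ± 0.44 from cerebellum and by 2.94 ± 0.46 from spinal cord, Arc by 2.06 ± 0.26 and 2.40 ± 0.27, and Nr4a1 by 1.45 ± 0.36 and 1.40 ± 0.38. The adjusted p-values of these 9 genes were at most 0.00905.

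**Figure D2:**
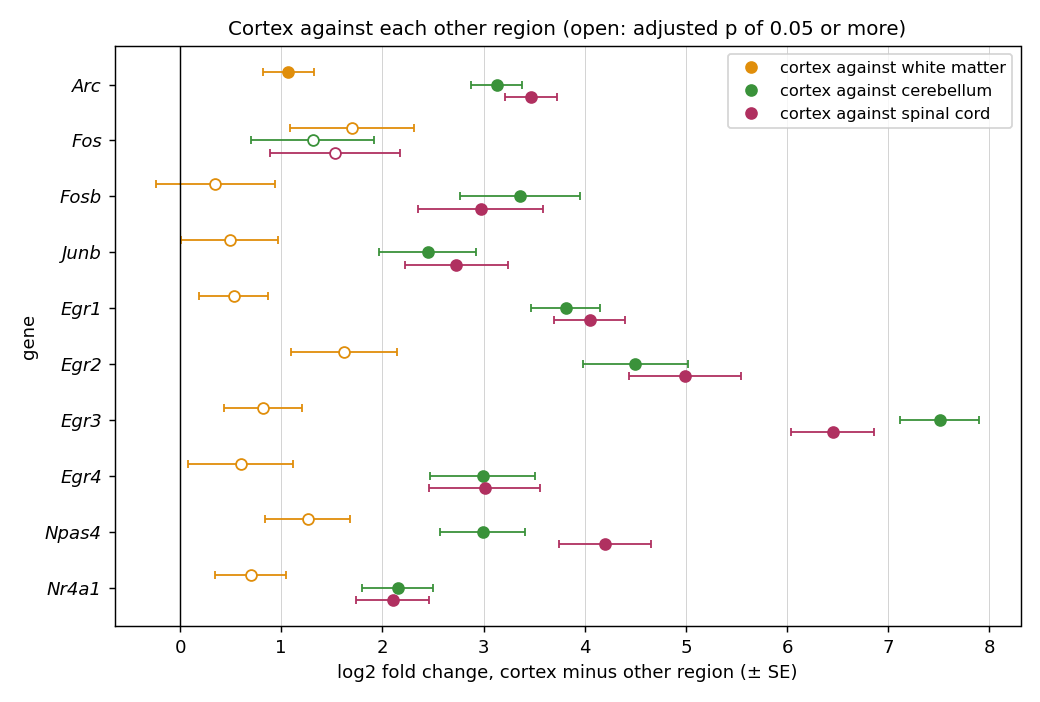
Log2 fold change of cortex over white matter, cerebellum and spinal cord for each of the 10 genes, with SE whiskers, from limma on log2(RPKM + 0.5); filled points have an adjusted p under 0.05. Egr3 is farthest to the right at 7.51 against cerebellum, Arc alone is filled against white matter, and the 3 Fos points are open.

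Across the 10 genes, cortex exceeded cerebellum by a median log2 fold change of 3.06 (all genes tested -0.02) and spinal cord by 3.24 (all genes tested 0.33). Cortex libraries lay above every cerebellum library for 9 genes (8.73% of all genes) and above every spinal cord library for 5 (11.6%). White matter exceeded cerebellum by a median of 2.23 (all genes tested -0.05) and spinal cord by 2.52 (all genes tested 0.30). White matter did not overlap with cerebellum for 7 genes (4.38% of all genes lay above) or with spinal cord for 5 (6.41%). These 4 comparisons share libraries with one another. With the pan-neuronal level of each library as a covariate, 9 genes were called in each of these 4 comparisons. Over all 13982 genes tested, this setting called 1221 and 4330 for cortex against cerebellum and spinal cord (3444 and 6115 without it). For white matter the counts were 1310 and 4052 (1364 and 3869 without it). The covariate does not measure forebrain excitatory RNA, whose part was not tested.

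Cortex against white matter was the narrower contrast. All 10 genes had a higher estimate in cortex, with a median of 0.76 against 0.02 over all genes, but Arc alone was called, where 2.11% of all genes were called higher. Arc and Fos were the 2 genes whose cortex libraries lay above every white matter library, as did those of 1.80% of all genes. Egr2 (1.62 ± 0.52, adjusted p = 0.0652), Npas4 (1.26 ± 0.42, adjusted p = 0.0769) and Egr3 (0.82 ± 0.39, adjusted p = 0.22) stood at unadjusted p-values of 0.00422, 0.00599 and 0.0425. Fosb had the smallest estimate at 0.35 (95% interval -0.86 to 1.55). The count was 4 when only the cortex and white matter libraries were fitted. It was 3, Fos among them, without spinal cord replicates 4 and 7, a setting chosen after their high Fos values were seen. Over all genes, these 2 settings called 1396 and 1355, against 754 in the main fit.

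Between cerebellum and spinal cord, no gene of the 10 was called by limma, 2 had an unadjusted p under 0.05, and the limma-voom test on recovered reads called 0, while 22.6% of all genes were called in one direction or the other. The 2 genes were Npas4, higher in cerebellum by 1.21 ± 0.46 (adjusted p = 0.0582), and Egr3, lower in cerebellum by a log2 fold change of -1.05 ± 0.42 (adjusted p = 0.0704). One of the 2 was called under 9 of the alternatives, for example Npas4 without cerebellum replicate 3 (1.49, adjusted p = 0.0189) and Egr3 without cerebellum replicate 6 (-1.32, adjusted p = 0.0254), without spinal cord replicate 3 (-1.52, adjusted p = 0.00435) or with quantile normalization (-1.64, adjusted p = 0.00236). All 10 genes overlapped between the 2 regions, and Egr2 was low in both, at means of 0.329 and 0.0572 RPKM. Egr2, Egr4 and Npas4 passed the filter on low values only through cortex and white matter libraries. With only these 2 regions fitted, those genes were not tested, so the result for them rests on values near the floor. The 95% interval of Arc, the best measured of them, was -0.21 to 0.89, and that of Fos, the widest apart across spinal cord libraries, was -1.13 to 1.57.

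Other genes of the activity response moved less uniformly across regions. The lists of other rapid response genes, late response genes and upstream factors were tested with the same fit. Of 39 other rapid response genes, 12 were higher and 2 lower in cortex than in cerebellum, at a median of 0.45. Homer1, whose short form is a rapid response product, was higher at 307 ± 58 RPKM (SD, n = 7) against 40.8 ± 10.9 (n = 6), and the kinase gene Plk2 at 76.8 ± 11.9 against 4.71 ± 1.1. Ptgs2, which encodes the cyclooxygenase COX-2, was at 9.1 ± 3.39 against 0.0805 ± 0.125 RPKM. Of 14 late response genes, 8 were higher and 0 lower, at a median of 1.62, among them Rgs4, a regulator of G protein signalling (log2 4.95 ± 0.33), and Inhba, an activin subunit (2.98 ± 0.42). Of 28 upstream signalling genes and transcription factors, 16 were higher and 3 lower. Mef2c (5.31 ± 0.30), the CaM kinase gene Camk2a (6.64 ± 0.39) and the NMDA receptor subunit gene Grin2b (5.01 ± 0.39) had the smallest adjusted p-values among these. Of 6 partners and corepressors, 0 were higher and 2 were lower in cortex, the EGR corepressor gene Nab1 (-1.10 ± 0.25) and Jun (-0.85 ± 0.29). The lists overlap: Jun and Jund are also counted among the other rapid response genes, and Camk2a also among the forebrain excitatory markers. Against spinal cord, 15 other rapid response genes were higher in cortex and 4 lower, and Jund, an AP-1 partner, was lower in cortex at 22.5 ± 11.4 against 135 ± 54.7 RPKM. Of all 13982 genes tested, 3444 were called against cerebellum, 1837 of them higher in cortex. Against spinal cord 6115 were called, 3847 of them higher in cortex. Whether these lists differ from all genes in the share called lower was not tested. Jun (26.8 ± 9.35 RPKM in cortex, 58.5 ± 26.2 in white matter) was the only 1 of the 39 other rapid response genes called between cortex and white matter.

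The cell markers moved with region too. In cortex against cerebellum, 6 of 7 forebrain excitatory neuron genes were higher (median 3.58), 4 of 9 pan-neuronal genes were higher (median 0.71) and 8 of 8 oligodendrocyte genes were lower (median -1.86). In cortex against spinal cord, 7 of 7 forebrain excitatory genes were higher (median 5.88) and 8 of 8 oligodendrocyte genes lower (median -2.34). Pan-neuronal genes were mixed there, with 4 higher and 1 lower (median 0.33, the same as over all genes tested). Microglial genes were higher for 4 of 5 against cerebellum and 3 of 5 against spinal cord, with 0 lower. Pericyte and smooth muscle genes were higher for 2 of 2 and 1 of 2, with 0 lower. Of all genes tested, 13.1% were called higher against cerebellum and 27.5% against spinal cord. Tbr1, a transcription factor of excitatory cortical neurons, was at 61.8 ± 12.3 RPKM in cortex and 0.348 ± 0.208 in cerebellum. Cerebellar neuron genes, 4 of 4, were lower in cortex than in cerebellum. The summed forebrain excitatory level ran from 2725 to 5011 RPKM over cortex libraries, 884 to 3701 over white matter, 39.8 to 164 over cerebellum and 21.4 to 175 over spinal cord. Its part in the regional differences of the 10 genes was not tested.

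**Figure D3:**
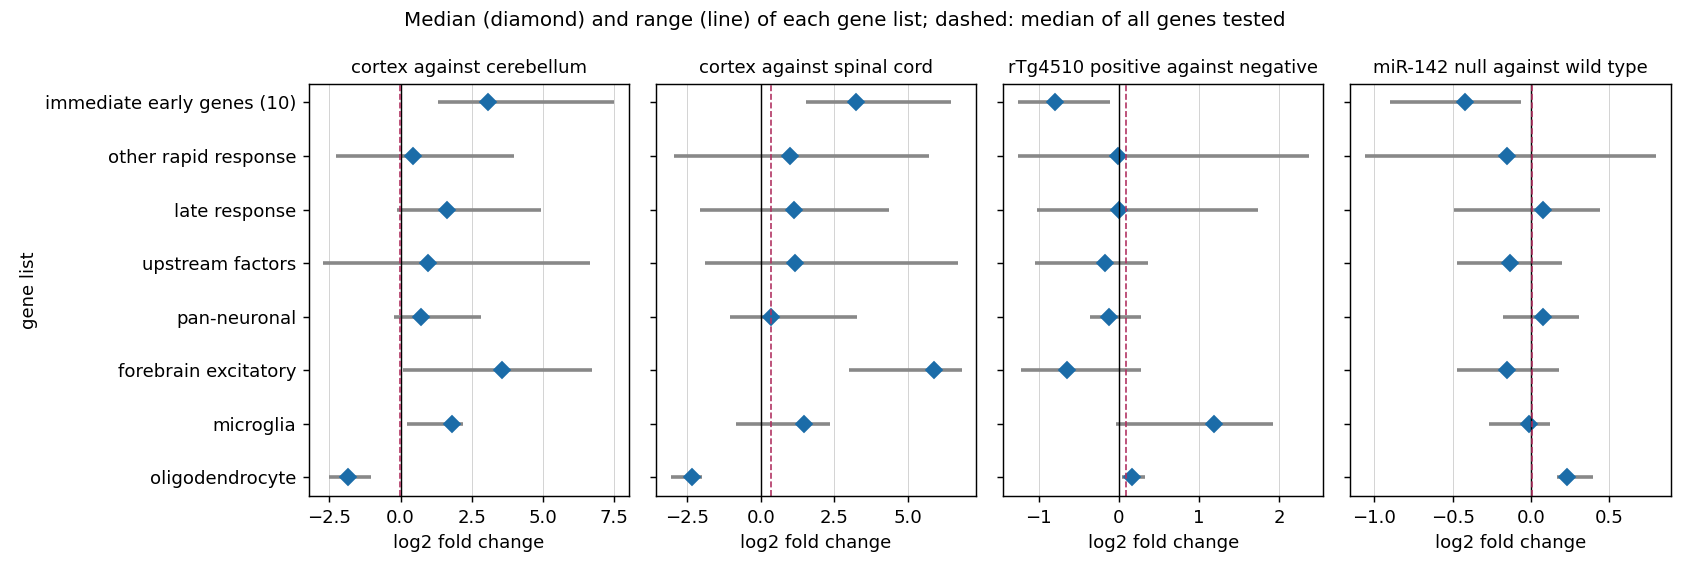
Median (diamond) and full range (line) of the log2 fold changes of 8 gene lists in 4 comparisons, with the median of all genes tested dashed. The 10 immediate early genes lie above 0 throughout against cerebellum and spinal cord and below 0 throughout in the rTg4510 and miR-142-null comparisons, with medians of 3.06, 3.24, -0.79 and -0.42.

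In bulk frontal cortex, all 10 genes had a lower estimate in rTg4510+ than in rTg4510- libraries, and Egr3 was called. Egr3 was at 58.3, 68 and 83.5 RPKM in the negative libraries and at 38.4, 36.6 and 23.3 RPKM in the positive ones. The groups did not overlap, the highest positive library staying below the lowest negative one. Egr3 was 2.14-fold lower (log2 -1.10 ± 0.21, limma adjusted p = 0.0252). Egr1 was at 91.8, 79.4 and 131 RPKM in negative and 58.3, 70.2 and 33.8 RPKM in positive libraries, also without overlap, and its difference of -0.92 ± 0.30 was not called (adjusted p = 0.113). Of all genes tested, 1.65% were called lower, and 8.32% lay below with no overlap, the state of 2 of the 10. Egr3 lost its call without negative replicate 3 (-0.97, adjusted p = 0.086), without positive replicate 2 (-1.20, adjusted p = 0.0652) and with the pan-neuronal covariate (-0.93, adjusted p = 0.115).

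Arc was at 471, 282 and 495 RPKM in negative and 252, 282 and 66.3 RPKM in positive libraries. Positive replicate 3 was the low one, and positive replicate 2 (282.0 RPKM) lay just above the lowest negative library (281.5 RPKM). The difference of Arc was -1.26 ± 0.60 (adjusted p = 0.246). Egr4 was at 11.9, 9.51 and 15.6 RPKM in negative and 10.4, 6.35 and 2.87 RPKM in positive libraries (1.99-fold lower, SE 0.42 on the log2 scale, adjusted p = 0.186), and Egr2 at 17.2, 9.67 and 17.6 against 10.6, 9.24 and 2.81 RPKM (-1.06 ± 0.49, adjusted p = 0.226). In both, 1 positive library exceeded the lowest negative library. Fos was at 57.5, 25.8 and 56.4 RPKM in negative and 49.4, 63.6 and 19 RPKM in positive libraries, with a difference of -0.16 (95% interval -1.46 to 1.15). Fosb differed by -0.11 (95% interval -0.83 to 0.60), Junb by -0.67 (-1.73 to 0.40), Npas4 by -0.54 (-1.33 to 0.25) and Nr4a1 by -0.58 (-1.59 to 0.44). The median over the 10 was -0.79, against 0.09 over all genes.

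**Figure D4:**
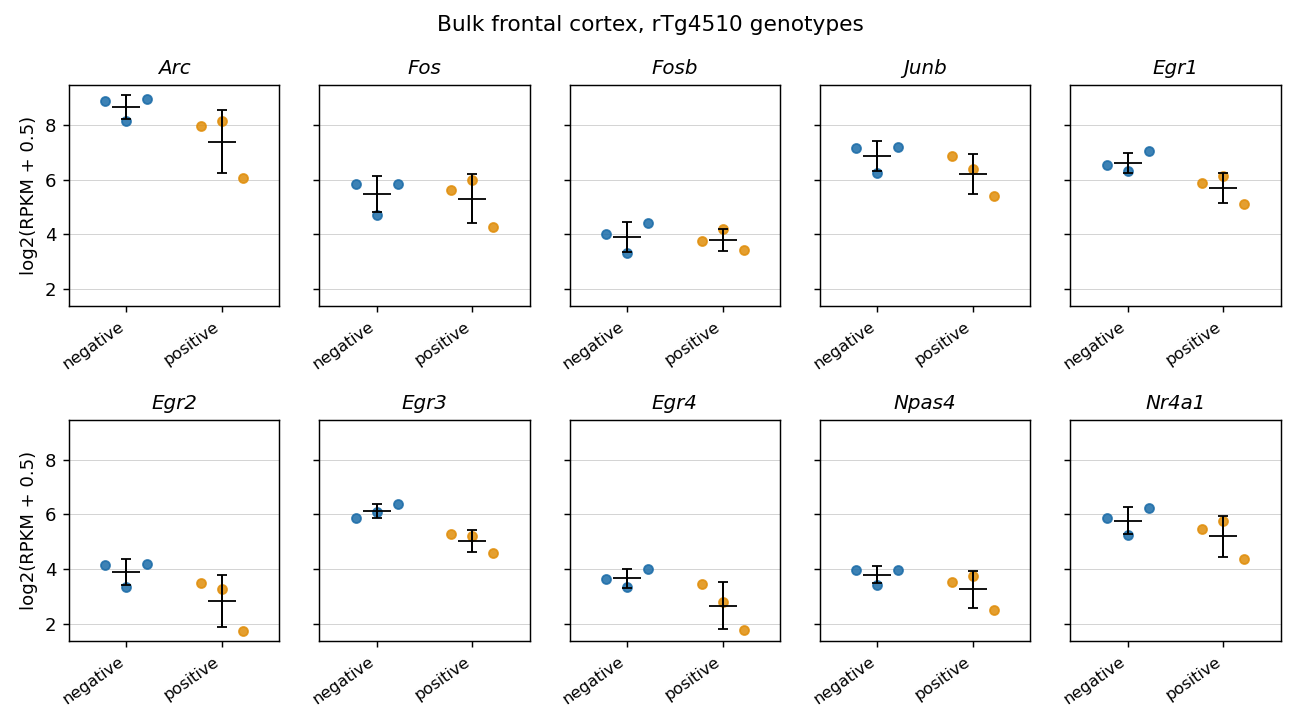
Log2(RPKM + 0.5) of the 10 genes in 3 rTg4510- (negative) and 3 rTg4510+ (positive) libraries of bulk frontal cortex; points are libraries, bars the mean and whiskers 1 SD. The 2 groups are apart for Egr1 and Egr3 and overlap for the other 8, with positive replicate 3 lowest among the positive libraries throughout.

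Within a library the 10 genes mostly deviated in the same direction, while libraries of 1 genotype differed from one another. Positive replicate 3 was below its group mean in all 10 genes, by a mean of -0.82 on the log2 scale, and positive replicate 2 was above it in all 10, by 0.43. Positive replicate 3 was also the shallowest bulk library, at 13.9 M reads against 27 and 25.8 M in positive replicates 1 and 2. The part of depth in its low values was not tested. Negative replicate 2 was below in all 10 (-0.46) and negative replicate 3 above in all 10 (0.35). Negative replicate 2 also had a summed level of 4 striatal neuron genes of 746 RPKM, against 85.8 and 93.5 RPKM in the other 2 negative libraries, and the part of this in the result was not tested.

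In rTg4510+ cortex, other rapid response and late response genes were called in both directions, and upstream genes lower alone. Of 38 other rapid response genes tested, 6 rose and 1 fell, at a median of -0.01. Of all 13972 genes tested, 1037 were called, 231 of them lower and the rest higher. Atf3, a stress-inducible factor, was at 10.9 ± 3.22 RPKM (SD, n = 3) against 1.7 ± 0.499, and Maff, a small Maf factor, at 3.78 ± 0.529 against 1.32 ± 0.205. Ptgs2 fell, at 5.53 ± 1.47 against 13.7 ± 1.41 RPKM. Among 14 late response genes, Cdkn1a (1.74 ± 0.23), a cell cycle inhibitor, and Scg2 (1.26 ± 0.24), a secretogranin, rose, and Nrn1 (-1.02 ± 0.14), which encodes neuritin, fell. Of 28 upstream genes, 0 rose and 6 fell, with Ppp3ca, the calcineurin catalytic subunit, at -0.82 ± 0.11, Camk2a at -1.04 ± 0.17 and Grin2b at -0.57 ± 0.11. Of the 6 partners and corepressors, none was called. Markers moved as well: 4 of 5 microglial genes rose (C1qa 216 ± 30.7 against 56.6 ± 5.62 RPKM), as did 2 of 5 astrocyte genes (Gfap 789 ± 74.6 against 126 ± 34.8 RPKM, Aqp4 444 ± 36.1 against 227 ± 8.72) and 1 of 6 inhibitory neuron genes, Vip (130 ± 8.94 against 81.5 ± 2.81). Of the other neuronal lists, 0 of 9 pan-neuronal genes were called, and 1 of 7 forebrain excitatory genes fell, Camk2a, which is also counted among the upstream genes. The summed forebrain excitatory level was 1362 to 1790 RPKM in negative and 795 to 1244 RPKM in positive libraries, and the part of these markers in the lower Egr3 was not tested, beyond the pan-neuronal covariate above.

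In bulk prefrontal cortex, none of the 10 genes was called in any of the 3 miR-142 comparisons, by limma or by limma-voom on recovered reads. The level of miR-142 itself was not analysed here, so the genotype labels were not checked. All 10 had a lower estimate in miR-142-null than in wild-type libraries, at a median of -0.42 (all genes 0.01), and than in heterozygous libraries, at a median of -0.44 (all genes 0.01). One gene, Nr4a1, had an unadjusted p under 0.05 in each of these 2 comparisons, and 0 did in heterozygous against wild type. Across all genes, 0.468% were called in null against wild type, 0% in heterozygous against wild type and 0% in null against heterozygous.

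Nr4a1 was at 12.7, 13.1, 14.4 and 18.5 RPKM in null, 34.4, 20.6, 13.9 and 37.4 in heterozygous and 14.8, 25, 30.2 and 31.8 in wild-type libraries. Wild-type replicate 1 and heterozygous replicate 3 fell inside the null range, and the other 6 lay above it. The difference of Nr4a1 was -0.73 ± 0.32 for null against wild type (adjusted p = 0.208) and -0.75 ± 0.32 for null against heterozygous (adjusted p = 0.99). Arc was at 48.2, 64.4, 57 and 73.5 RPKM in null, 176, 99.1, 45.2 and 198 in heterozygous and 55.1, 144.4, 141.8 and 141.7 in wild-type libraries. The same wild-type and heterozygous libraries were the low ones for Arc. Its difference was -0.90 ± 0.48 for null against wild type (adjusted p = 0.3) and -0.01 for heterozygous against wild type (95% interval -1.09 to 1.07).

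Egr1 was at 25, 66.1, 29.2 and 53 RPKM in null, 66.2, 57.3, 42.3 and 53.1 in heterozygous and 24.1, 49.3, 98.5 and 75.8 in wild-type libraries, and all 3 groups overlapped. Egr3 was at 65.8, 114, 62.7 and 74.7 RPKM in null, 89.5, 120, 93.6 and 99.1 in heterozygous and 79.5, 88.4, 132 and 109 in wild-type libraries. Its difference of null from wild type was -0.38 (95% interval -0.81 to 0.06). Fos ran from 7.03 to 12.5 RPKM in null libraries, from 8.24 to 26.9 in heterozygous ones and from 5.59 to 17.2 in wild-type ones (null against wild type -0.20, 95% interval -1.09 to 0.69). Junb differed by -0.40 in null against wild type (95% interval -1.16 to 0.36), Fosb by -0.29 (-0.78 to 0.19), Egr2 by -0.60 (-1.91 to 0.72), Egr4 by -0.46 (SE 0.25) and Npas4 by -0.06 (-0.90 to 0.77). In heterozygous against wild type, the 10 estimates ran from -0.07 to 0.40 with a median of 0.01.

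**Figure D5:**
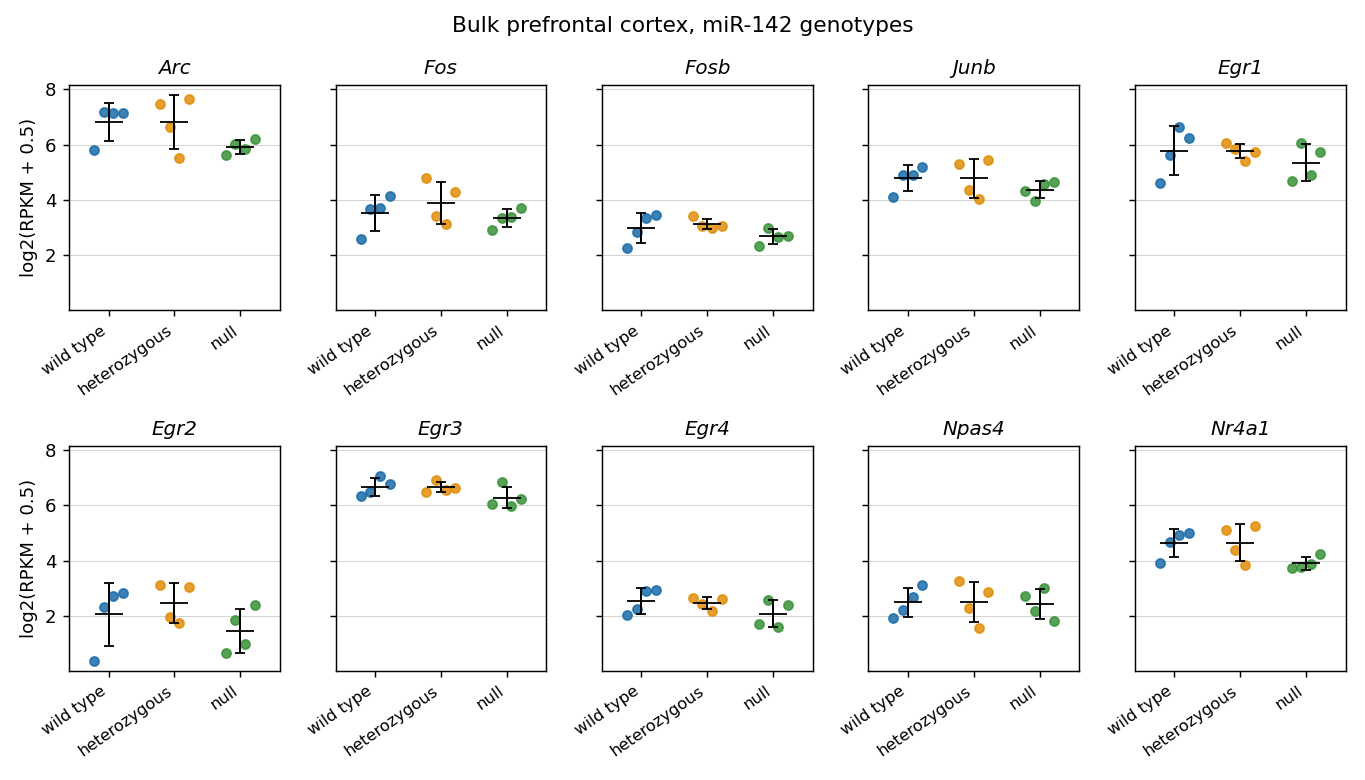
Log2(RPKM + 0.5) of the 10 genes in 4 wild-type, 4 miR-142-heterozygotes and 4 miR-142-null libraries of bulk prefrontal cortex; points are libraries, bars the mean and whiskers 1 SD. The 3 groups overlap for every gene, and wild-type replicate 1 is the lowest wild-type library for each of the 10.

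Libraries of 1 genotype differed here as well. Wild-type replicate 1 was below its group mean in all 10 genes, by a mean of -0.83, and heterozygous replicate 3 in all 10, by -0.62. Wild-type replicates 3 and 4 were above in all 10, by 0.38 and 0.46. Null libraries deviated by means of -0.31, 0.18, -0.10 and 0.22. The titles of wild-type replicates 1 and 2 carry the code F13 and those of replicates 3 and 4 the code M15, whereas 3 null and 3 heterozygous titles carry M14. What these codes stand for is not stated. Code M15 occurs only among wild-type titles. No null title shares a full code with a wild-type title, so code and genotype cannot be told apart in that comparison. A covariate for the first letter leaves the number in the code unadjusted. With the first letter of the code as a covariate, 0 of the 10 genes were called in each of the 3 comparisons, as in null against heterozygous among M14 titles alone. Of the other lists, 0 of 38 other rapid response genes and 0 of 14 late response genes were called in null against wild type, and 1 of 28 upstream genes, the CREB coactivator gene Crtc1, was lower (34.7 ± 2.87 against 47.9 ± 2.93 RPKM, SD, n = 4, adjusted p = 0.0493). Pan-neuronal genes, 0 of 9 called, summed to 10266 to 11963 RPKM in null and 9585 to 10872 RPKM in wild-type libraries. Forebrain excitatory genes, 0 of 7 called, summed to 1504 to 1835 RPKM in null, below the 1951 to 2212 RPKM of wild type without overlap, with heterozygous libraries at 1595 to 1965 RPKM. Of 4 endothelial genes 1 was lower in null, Flt1, a VEGF receptor gene (7.98 ± 1.72 against 13.5 ± 1.63 RPKM, adjusted p = 0.0493). The part of these markers in the lower estimates of the 10 genes was not tested.

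Genes whose deviations within groups were most like the mean deviation of the 10 were sought in each table among genes of at least 2 RPKM. In the 12 miR-142 libraries these were Tbc1d10a (Pearson r = 0.93), Dmp1 (0.92), Inhbb (0.92) and Dusp6 (0.91), against a median r of -0.02 over all genes. The median r was 0.45 over other rapid response genes, 0.43 over late response genes, 0.48 over microglial genes and -0.57 over oligodendrocyte genes. In the 24 TRAP libraries the values were lower: Fbxo45 (0.75), Eri3 (0.73), Cxx1c (0.72), Syt4 (0.72) and Paf1 (0.71), against medians of 0.13 for other rapid response, 0.36 for pan-neuronal, 0.41 for microglial and -0.38 for oligodendrocyte genes. In the 6 rTg4510 libraries Ctdnep1, Ubac2, Gmpr2, Ccdc137 and Msrb2 came first, the last of them at 0.99, and the medians were 0.69 for other rapid response and 0.54 for oligodendrocyte genes. These are descriptions, since the values of a library share its depth and dissection, and each set was taken from the top 5 of 11924 to 12407 genes.

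The order of the 10 by mean RPKM, a level per length, was Arc, Egr1, Egr3 and Nr4a1 from the top in TRAP cortex (454, 272, 243 and 46.9) and TRAP white matter (214, 190, 139 and 29.8). In cerebellum and spinal cord Arc, Egr1 and Nr4a1 led, while Egr3 dropped to 0.991 and 2.93 RPKM. Junb was last in TRAP cortex at 6.35 ± 3.8 RPKM and second in rTg4510- bulk cortex at 122 ± 41. Egr3 was first in miR-142-null cortex (79.4 ± 23.9) and second in wild type (102 ± 23.2), behind Arc (121 ± 43.8), each pair within its spread. TRAP and bulk tables were made separately, so these ranks across tables were not tested.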

How the data were processed

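Gene tables of RPKM values were deposited by the authors, 1 each for TRAP, rTg4510 and miR-142 libraries. Per the submitters' processing notes, STAR and HTSeq were used with build mm10; their settings are not given in the sources used here. Ribosomal RNA was depleted and either NuGEN amplification or Illumina TruSeq Stranded libraries were made, per the labels' protocols. Read counts were recovered from the RPKM steps: in 18782 of 18782 genes above 0 the values were whole within 0.005, which gave each library's depth after the step of 2 libraries was multiplied by a divisor that nearly all their counts shared. Depths, read counts and 3-read levels are therefore estimates.

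Each table was fitted separately with limma 3.58.1 in R 4.3.3 on log2(RPKM + 0.5), with trend and robust options, all groups of a table together, and genes of at least 0.5 RPKM in as many libraries as the smallest group (5, 3 and 4). P-values were adjusted by Benjamini-Hochberg over all genes tested. The same limma code was also run on simulated reads with a fixed spread that was not matched to these libraries, and no result here rests on that run. Alternatives covered pseudocount, filter, scaling, weights, voom on recovered reads, covariates and left-out libraries.

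All 10 genes were described in every comparison. From each other list, at most 3 called genes, taken by adjusted p, could be named, or the 2 most abundant where none was called. The 5 genes most alike in each table needed a mean of at least 2 RPKM; 1 of them is not reported here. The 10 genes and the lists were chosen with earlier results of these data known. Libraries of 1 group never gave near-identical counts (chi-square per degree of freedom of at least 5.1). Coordinates of the promoters are from RefSeq on GRCm38.p6 and annotation from GENCODE.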

Additional observations from a re-analysis of the deposited data

Results flagged for a closer look

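In 10 of 70 sets of values (1 gene in 1 group of 4 to 7 libraries), 1 library stood apart from the others of its group by Dixon's outlier rule. The rule was used on untransformed RPKM, and it sets apart about 1 in 20 only for independent, normally distributed values. The genes of a library share its depth and dissection, so no excess over that rate can be read from the count. In TRAP cortex the values set apart were Fos in replicate 7 (35.1 RPKM, next 17.7) and Nr4a1 in replicate 2 (67 RPKM, next 48.2). In cerebellum they were Egr3 in replicate 6 (2.77 RPKM, next 1.04) and Egr4 in replicate 2 (1.35 RPKM, next 0.58). Spinal cord had 4: Fosb in replicate 5 (5.97 RPKM, next 0.907), Egr4 in replicate 8 (4.72 RPKM, next 0.572), and Egr1 (49.9 RPKM, next 16.2) and Nr4a1 (42.5 RPKM, next 8.96), both in replicate 4. In the miR-142 table, Fosb was high in heterozygous replicate 1 (10.2 RPKM, next 7.88) and Arc was low in wild-type replicate 1 (55.1 RPKM, next 141.7).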

How the results depend on the processing

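Of 2267 values of single genes under alternatives, 2223 kept their side of the threshold, 5 lost a call, 39 gained one, and no called value changed sign, while 85 uncalled values did. The count of called genes was 9 or 10 for cortex against cerebellum and against spinal cord, 9 for white matter against cerebellum, 8 or 9 against spinal cord, and 0 in the 3 miR-142 comparisons under every alternative run. Cortex against white matter gave 1 call, and 3 with pseudocount 1, library weights, voom on recovered reads or (chosen after seeing the data) spinal cord replicates 4 and 7 left out, 4 with quantile normalization or only the 2 groups compared, and 2 without the trend and robust options. Leaving out single libraries gave 1 to 2, with 2 without white matter replicate 2, 7 or 8. Cerebellum against spinal cord gave 1 with pseudocount 0.1, no filter, quantile normalization, median-of-ratios scaling, no trend and robust options or the pan-neuronal covariate, and 0 to 1 without single libraries. rTg4510 gave 2 with library weights, 0 with the pan-neuronal covariate, and 0 to 2 without single libraries. The cause of these changes was not tested.

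The counts of all genes called, which set the background shares, moved more: cortex against white matter 754, and 133 with the pan-neuronal covariate, 2589 with library weights or 296 without white matter replicate 3. That comparison also gave 1158 with quantile normalization, 1396 with only the 2 groups and 1355 without spinal cord replicates 4 and 7. Cortex against cerebellum gave 3444, and 1221 with the covariate or 7522 with weights. White matter gave 1364 against cerebellum (2352 with weights) and 3869 against spinal cord (2461 with weights, 2200 with only the 2 groups), and cerebellum against spinal cord 3162 (2033 with only the 2 groups). rTg4510 gave 1037, and 428 with the covariate, 5018 with weights and 264 to 2323 without single libraries. Null against wild type gave 65, and 0 with pseudocount 1, median-of-ratios scaling or the covariate, 1297 with weights and 0 to 662 without single libraries. Same-numbered TRAP libraries had a mean correlation of 0.08 over 31 pairs (-0.24 to 0.27), 13 of them over 0.1, against -0.01 over 184 other pairs, and 7 of 24 libraries correlated best with their own number. The labels do not say whether a number marks 1 animal, and this check does not settle it. With the replicate block the 6 TRAP comparisons gave 1, 9, 10, 9, 9 and 0 calls, the added one being Fos for cortex against spinal cord (adjusted p = 0.0364). No paired analysis was possible in the bulk tables because their replicate numbers only follow the order of deposit. Depth limits the low genes most: at the shallowest library, 3 reads of Junb are worth 0.891 RPKM.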
